A study of Mus musculus with 16 samples.

Results

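The genes described here are the 32 sterol and fatty acid synthesis genes, with their SREBP regulators, that were followed by symbol in count tables of 55291 genes from mouse liver. The list was chosen by gene function. It holds 5 regulators (Srebf1, Srebf2, Insig1, Insig2 and Scap), 7 enzymes from acetyl-CoA to farnesyl diphosphate, 11 enzymes from squalene to cholesterol, the sterol carrier Stard4 and 8 genes of fatty acid and glycerolipid synthesis. Some other enzymes of these pathways are not analysed here. All 32 were found and all 32 passed the filter on low counts.

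Polyadenylated RNA was sequenced from 14 pieces of whole liver and 2 isolated liver tumours, with 2 libraries in each of 8 groups. Vehicle (DMSO) livers were WT, labelled Arid1a KO or labelled Arid1a/b DKO at 9 days after tamoxifen, and WT or labelled Arid1a KO at 30 days. Agonist livers were WT or labelled Arid1a KO, treated here as 30-day livers, and came from mice injected with an agonist of a receptor that the labels spell NR1L3. That spelling is not a receptor symbol, and 1 of the labels of the WT agonist livers gives 9 days instead. No time point is given for the tumours, whose label reads Arid1a KO/BcatEXON. The names of the tumour samples mention neither vehicle nor agonist. Arid1a and Arid1b encode alternative subunits of the BAF chromatin remodelling complex. The labels name the cell type as hepatocytes while the series describes whole tissue, and each condition is stated to have 2 biological replicates. Sample names of the WT livers begin with ALB, but the promoter driving Cre is not stated in the sources used here. With 2 libraries a group, p-values set each difference against a spread between libraries that was estimated over all groups in the fit. They speak for these samples only.

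SREBP proteins are membrane-bound transcription factors of the endoplasmic reticulum. When sterols are low, SCAP escorts them to the Golgi, where proteases release the active part, which enters the nucleus and raises transcription of lipid synthesis genes. When sterols are high, the INSIG proteins hold SCAP back. In liver the product of Srebf2 mainly drives cholesterol synthesis, while the SREBP-1c form from Srebf1 responds to insulin and to LXR and drives fatty acid synthesis after feeding. Genes of the pathway therefore also serve as a readout of feeding and of the time of day.

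Library totals ran from 7569779 to 47768610 counts, and the lowest count of any of the 32 genes in any library was 64. The quasi-likelihood test of edgeR was fitted over all genes, and a gene was called at a Benjamini-Hochberg adjusted p under 0.05. Levels are in CPM, a gene's share of its library's counts after TMM scaling, and log2 differences are on the count model's scale. Gene-level Arid1a ran from 87.5 to 90.1 CPM in livers labelled Arid1a KO at 9 days and from 72.2 to 77.0 CPM in WT livers at 9 days, so it was not lower there. It ran from 90.6 to 103 CPM in Arid1a/b DKO, also above WT of that time point. Arid1a ran from 76.5 to 95.3 CPM in Arid1a KO and 86.4 to 105 CPM in WT vehicle livers at 30 days, and from 55.9 to 63.7 CPM in tumours. The counts sum over the whole gene and the deleted part is not given in the sources used here, so this total does not check the labels, and groups are named by their labels throughout. Arid1b ran from 24.5 to 25.7 CPM in Arid1a/b DKO and from 38.0 to 52.8 CPM in WT livers at 9 days. The hepatocyte genes were abundant in every group (summed level of 7 markers between 19043 and 46928 CPM). The adipocyte hormone gene Adipoq was at or near 0 in each library. Of the other adipocyte markers, Plin1 and Cfd were low throughout, but Cidec was not. For Cidec the Arid1a/b DKO libraries read 35.9 and 148 CPM and the tumours 176 and 79.0 CPM. Its values in WT vehicle livers were 6.19 and 5.79 CPM at 9 days and 7.48 and 5.68 CPM at 30 days. The reason for the higher Cidec was not tested.

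Per kilobase of exon, Thrsp, which encodes a small regulator of lipogenesis, stood first among the 32 in WT liver at 9 days with a mean of 513 CPM per kilobase. Insig1 (157), Fasn (150), Srebf1 (136) and Sc5d (125 CPM per kilobase) followed, and Acaca came last with 6.40 CPM per kilobase. In WT liver at 30 days Thrsp was again first with 349.5 CPM per kilobase and Sc5d was second with 200.5 CPM per kilobase. These orders compare levels between genes and rest on 2 libraries each. From the lowest to the highest of the 16 libraries Thrsp spanned 257-fold, Acss2 24.0-fold, Sc5d 22.7-fold and Hmgcs1 19.0-fold, while Ebp spanned 2.98-fold and Insig1 3.28-fold. Replicate 1 of Arid1a/b DKO was the lowest library for 23 of the 32 genes and replicate 1 of the tumours for 5.

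**Figure D1:**
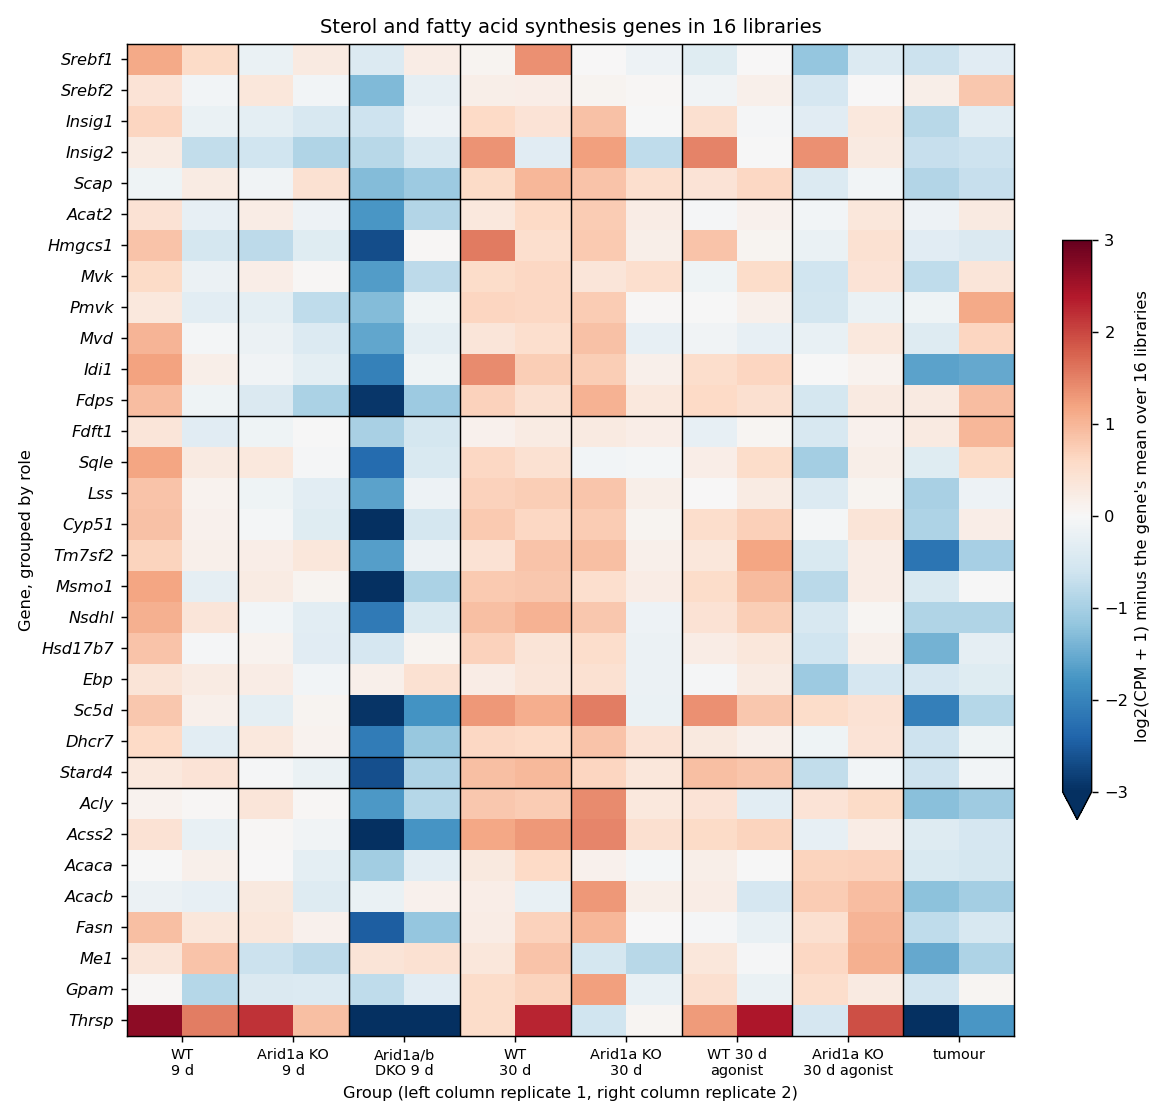
Levels of the 32 genes (rows, grouped by role) in the 16 libraries (columns, 2 per group), as log2(CPM + 1) minus each gene's mean over all libraries; blue is below and red above that mean, and the scale ends at -3 and 3. The Arid1a/b DKO columns are blue for most genes, replicate 1 more so, and Me1 in the lower block is blue in Arid1a KO vehicle livers and tumours but not in Arid1a/b DKO.

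Promoters of 5 of these genes are shown because the results below turn on them or because they differ in known motifs. RefSeq start sites on GRCm38.p6 gave 38 promoters for 28 of the 32 genes, and each was searched over the 250 bases before the start on both strands. The search covered 3 motifs: the sterol response element (SRE, letters TCACNCCAC), the CCAAT box bound by NF-Y (CCAAT) and the E-box bound by USF (CACGTG). Capitals mark every match in either orientation, so a CCAAT box on the other strand reads ATTGG. Hmgcs1, encoding the synthase that makes HMG-CoA, lies on the plus strand (chr13:119690101-119690350). Fasn, encoding fatty acid synthase (chr11:120824548-120824797), Sc5d, encoding the sterol C5-desaturase (chr9:42264301-42264550), Thrsp (chr7:97417551-97417800) and Me1, encoding the cytosolic malic enzyme that yields NADPH (first start, chr9:86695915-86696164), lie on the minus strand and are printed in the direction of transcription.
Hmgcs1: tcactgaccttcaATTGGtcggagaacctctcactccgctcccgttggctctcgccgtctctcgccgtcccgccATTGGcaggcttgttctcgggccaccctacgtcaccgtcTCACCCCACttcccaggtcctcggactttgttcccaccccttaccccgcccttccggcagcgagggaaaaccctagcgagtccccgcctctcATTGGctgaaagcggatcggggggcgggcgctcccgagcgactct
Fasn: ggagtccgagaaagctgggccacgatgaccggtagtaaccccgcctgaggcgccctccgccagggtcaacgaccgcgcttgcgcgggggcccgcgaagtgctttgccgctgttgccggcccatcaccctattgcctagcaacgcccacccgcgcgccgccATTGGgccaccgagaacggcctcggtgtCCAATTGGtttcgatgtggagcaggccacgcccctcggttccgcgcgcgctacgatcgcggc
Sc5d: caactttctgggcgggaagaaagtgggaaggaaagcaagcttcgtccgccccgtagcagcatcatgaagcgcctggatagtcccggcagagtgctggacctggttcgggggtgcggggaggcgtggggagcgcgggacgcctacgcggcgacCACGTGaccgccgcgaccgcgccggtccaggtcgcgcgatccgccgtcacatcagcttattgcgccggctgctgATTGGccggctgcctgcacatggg
Thrsp: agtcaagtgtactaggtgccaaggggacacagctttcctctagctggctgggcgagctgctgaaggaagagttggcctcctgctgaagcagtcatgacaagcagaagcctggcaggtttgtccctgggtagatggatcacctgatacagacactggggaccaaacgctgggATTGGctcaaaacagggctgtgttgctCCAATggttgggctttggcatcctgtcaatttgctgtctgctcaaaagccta
Me1: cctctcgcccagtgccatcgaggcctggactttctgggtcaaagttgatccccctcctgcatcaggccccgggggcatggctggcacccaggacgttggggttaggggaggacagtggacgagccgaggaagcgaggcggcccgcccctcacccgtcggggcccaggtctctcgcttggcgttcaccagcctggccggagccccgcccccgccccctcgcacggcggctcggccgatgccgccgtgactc
The SRE letters were found in 1 of the 28 genes, Hmgcs1, as TCACCCCAC starting 137 bases before the start, against 1.22% of all 27025 genes with a promoter in the table. A CCAAT box was found in 24 of 28 genes, against 37.5% of all genes, and in 25 of their 38 promoters (65.8%), against 33.8% of all 32851 promoters. The E-box was found in 5 of 28 genes, against 6.86% of all genes. Sc5d held 1 CCAAT box and 1 E-box, Thrsp held 2 CCAAT boxes, Fasn held 3, and the first Me1 promoter held none of the 3 motifs. A match describes these letters only and says nothing of binding.

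The regulators set the frame for the comparisons. Srebf1, encoding SREBP-1, stood at 919 and 614 CPM in WT livers at 9 days, 362 and 496 CPM in Arid1a KO at 9 days and 312 and 486 CPM in Arid1a/b DKO. The 30-day levels were 437 and 1076 CPM in WT, 417 and 371 CPM in Arid1a KO, 322 and 416 CPM in WT with agonist and 186 and 313 CPM in Arid1a KO with agonist. The tumours had 265 and 326 CPM of Srebf1. The WT vehicle groups had the 2 highest means, the WT libraries at 30 days lay far apart, and neither Arid1a KO group overlapped its WT control. In the fit these differences were -0.84 ± 0.42 (log2 ± SE, adjusted p = 0.542) at 9 days and -0.94 ± 0.42 (adjusted p = 0.520) at 30 days, so neither was called.

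Srebf2, encoding SREBP-2, differed little between most liver groups. At 9 days the WT livers had 152 and 107 CPM and the Arid1a KO livers 143 and 107 CPM, and levels lay between 79.1 and 129 CPM in the 8 livers of 30 days. In Arid1a/b DKO it stood at 44.3 and 93.2 CPM, both below every 9-day library of the other genotypes, with a difference from WT of -0.90 ± 0.32 (adjusted p = 0.0613), which was not called. The tumours had 127 and 198 CPM, the second of these the highest of the 16 libraries.

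Scap, encoding the escort protein, stood at 132 and 173 CPM in WT, 135 and 199.8 CPM in Arid1a KO and 58.6 and 67.1 CPM in Arid1a/b DKO at 9 days. The 30-day levels were 217 and 289 CPM in WT, 264 and 208 CPM in Arid1a KO, 193 and 223 CPM in WT with agonist and 109 and 137 CPM in Arid1a KO with agonist. The tumours had 78.3 and 89.7 CPM. The Arid1a/b DKO libraries and the tumours were the 4 lowest of the 16, and the replicates of both groups lay close together.

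Insig1, encoding the sterol-regulated SCAP anchor, stood at 623 and 349.8 CPM in WT, 325 and 288 CPM in Arid1a KO and 259.9 and 361.5 CPM in Arid1a/b DKO at 9 days, and at 225 and 320.1 CPM in tumours. At 30 days it ran from 314 to 737 CPM over the 8 livers, with every group overlapping another. Insig2, the other anchor, ran from 91.2 to 202 CPM in the 6 livers of 9 days and stood at 105 and 111 CPM in tumours. At 30 days Insig2 stood at 439 and 136 CPM in WT, 399 and 101 CPM in Arid1a KO, 479 and 170.5 CPM in WT with agonist and 442 and 208 CPM in Arid1a KO with agonist. Replicate 1 was far above replicate 2 in each of the 4 groups, and no comparison called Insig1 or Insig2.

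**Figure D2:**
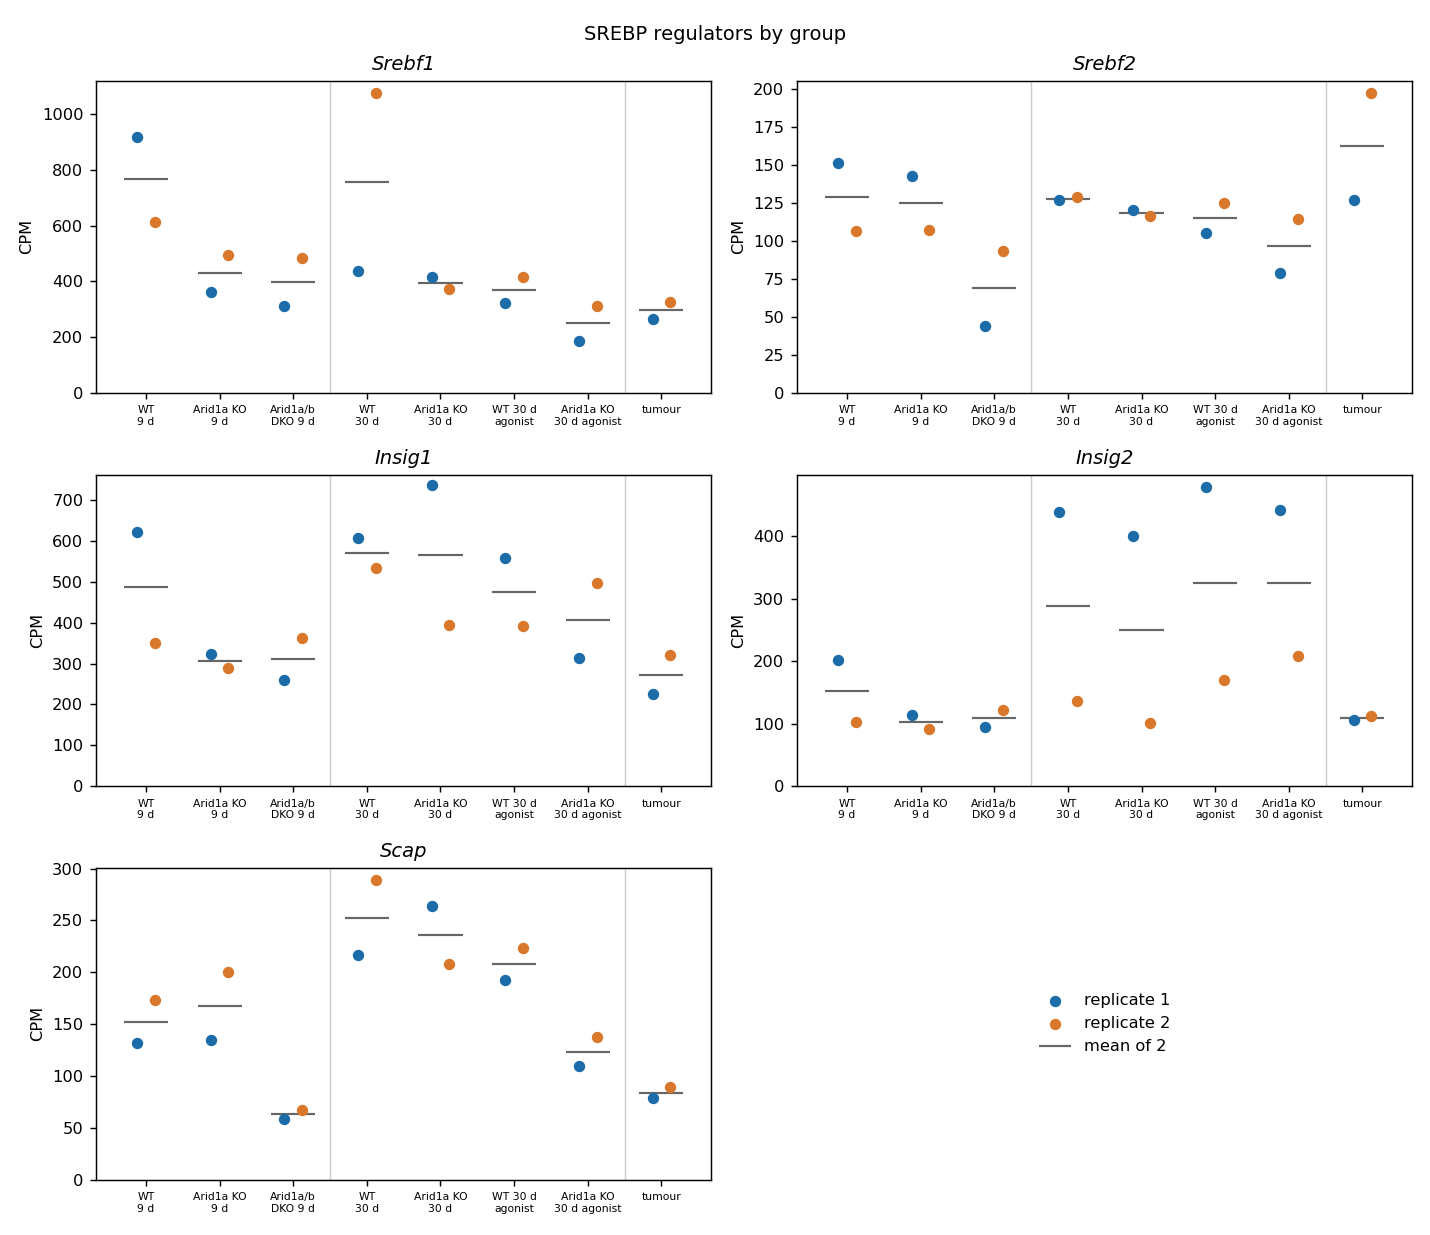
Levels of the 5 regulators in CPM (vertical axis from 0) in the 8 groups, with points for replicates 1 and 2 and a line for their mean. Scap is low in Arid1a/b DKO and tumours, and Insig2 splits by replicate in the 4 groups of 30 days.

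Livers labelled Arid1a KO were compared with WT at 9 and at 30 days. At 9 days 1 of the 32 genes fell, Me1, where 0.297% of all genes tested were called lower and none of the 32 rose. Me1 stood at 95.6 and 87.4 CPM in Arid1a KO and at 195 and 272 CPM in WT livers. The groups did not overlap, and the difference was -1.35 ± 0.25 (edgeR adjusted p = 0.0460). Of the 32 genes 28 had a negative difference, with a median of -0.52, against 49.6% of all genes and a median of 0.00. This direction was called in no other gene, and replicate 1 of WT was above replicate 2 for 28 of the 32.

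Fdps, encoding farnesyl diphosphate synthase, had the next smallest p at 9 days. It stood at 45.1 and 31.2 CPM in Arid1a KO and 116 and 55.8 CPM in WT (-1.17 ± 0.55, adjusted p = 0.501). All 7 genes from acetyl-CoA to farnesyl diphosphate and 10 of the 11 genes from squalene to cholesterol had negative differences, with medians of -0.88 and -0.60. In edgeR 0 of them were called or had an unadjusted p under 0.05. Over all genes tested 10.6% had such an unadjusted p. DESeq2 and limma each called 1 of the 32 genes in this comparison. The call of Me1 was lost when any 1 of the 4 libraries was left out (adjusted p up to 0.393 over all alternatives), although its difference stayed between -1.58 and -1.09.

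At 30 days none of the 32 genes was called by edgeR, where 0.516% of all genes tested were called in either direction. In edgeR 4 of the 32 had an unadjusted p under 0.05, against 9.43% of all genes. DESeq2 and limma each called 1. Me1 had the smallest p again, with 105 and 83.6 CPM in Arid1a KO and 192 and 275 CPM in WT. The groups did not overlap, and the difference of -1.31 ± 0.25 (adjusted p = 0.0570) was close to that of 9 days. Thrsp followed with 158 and 249 CPM in Arid1a KO and 351 and 1179 CPM in WT (-1.91 ± 0.82, adjusted p = 0.491). DESeq2 and limma called 0 of the 32 genes for a genotype difference that changed with time. The edgeR test of this also called 0, where 0% of all genes tested were called. It gave an unadjusted p under 0.05 for 0 of the 32, against 1.81% of all genes. Fdps (1.30 ± 0.78) and Mvd (0.86 ± 0.68) had its smallest p, both with an adjusted p of 1.

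Among related genes, 1 of 12 genes of fatty acid modification and glycerolipid assembly was called in Arid1a KO at each time. This was Scd2, a stearoyl-CoA desaturase that is low in normal liver, which lay, in a comparison where 0.269% of all genes tested were called higher, at 47.7 and 66.2 CPM in Arid1a KO and 10.6 and 15.3 CPM in WT at 9 days (2.13 ± 0.36, adjusted p = 0.0290). At 30 days it stood at 64.3 and 146 CPM against 9.78 and 7.90 CPM (3.58 ± 0.39, adjusted p = 0.00543). None of the 14 SREBP processing genes, 13 upstream regulators, 8 carbon and NADPH supply genes, 8 isoprenoid branch genes or 12 sterol transport genes was called at either time.

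The livers labelled Arid1a/b DKO had the most calls among the liver groups. In Arid1a/b DKO at 9 days 15 of the 32 genes fell relative to WT and none rose, where 13.8% of all genes tested were called lower. The median difference was -1.28 over the 32 genes and 0.01 over all genes. Of the 32 differences 31 were negative, against 49.4% of all genes. The genes that fell included Scap, the sterol enzymes Sc5d and Dhcr7, the acetyl-CoA synthetase Acss2 and fatty acid synthase, and Thrsp fell from the most abundant of the 32 per kilobase to a trace.

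Thrsp was measured at 6.05 and 9.46 CPM in the Arid1a/b DKO livers, and the WT livers had 1553 and 694 CPM. The groups lay far apart, with a 144-fold difference in the fit (-7.17 ± 1.04, adjusted p = 0.000951). Acss2, which makes acetyl-CoA from acetate, stood at 23.1 and 58.3 CPM against 271 and 173 CPM (-2.44 ± 0.44, adjusted p = 0.00290). Fasn stood at 187 and 464 CPM against 1964 and 1318 CPM (-2.33 ± 0.46, adjusted p = 0.00487). In all 3 genes both Arid1a/b DKO libraries were below both WT libraries.

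In the sterol branch Sc5d had 54.5 and 121 CPM in Arid1a/b DKO livers against 739 and 475 CPM in WT (-2.78 ± 0.54, adjusted p = 0.00457). Dhcr7, encoding the 7-dehydrocholesterol reductase of the last steps, stood at 31.2 and 60.7 CPM against 206 and 109.6 CPM (-1.78 ± 0.36, adjusted p = 0.00563). Scap, with the values given above, fell by 1.27 on the log2 scale (SE 0.25, adjusted p = 0.00487). Again no library of one group reached the other. Thrsp, Acss2, Sc5d, Fasn and Scap were called under all 11 alternatives tried for this comparison.

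The remaining genes that fell were Acat2 (acetoacetyl-CoA thiolase, -1.39), Mvk (mevalonate kinase, -1.44) and Fdps (-2.28) of the early steps. Sqle (squalene epoxidase, -1.91), Msmo1 (C4-methylsterol oxidase, -2.28) and Nsdhl (sterol dehydrogenase, -1.85) fell among the later steps. Stard4 (-1.92), Acly, encoding ATP-citrate lyase (-1.29), and Acaca, encoding the cytosolic acetyl-CoA carboxylase (-0.72), fell as well. By role this made 1 of 5 regulators, 3 of 7 early sterol enzymes, 5 of 11 late sterol enzymes, Stard4 and 5 of 8 fatty acid genes.

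Of the 17 genes that were not called, 4 are given here that were chosen after their values were seen. Ebp, encoding the sterol isomerase, had 214 and 265 CPM in Arid1a/b DKO livers against 254 and 227 CPM in WT (-0.00 ± 0.26). Gpam, the glycerol-phosphate acyltransferase, stood at 205 and 275 CPM against 355 and 191 CPM (-0.18 ± 0.43), and Acacb, the mitochondrial carboxylase, at 121 and 151 CPM against 122 and 117 CPM (0.19 ± 0.37). Me1 stood at 198 and 206 CPM, inside the WT range. In each of these 4 genes the groups overlapped. Just outside the threshold were Cyp51, Idi1, Lss, Fdft1 and Mvd, with adjusted p from 0.0517 to 0.0551 and differences from -1.87 to -0.78. The others not called were Srebf1, Srebf2, Insig1, Insig2, Hmgcs1, Pmvk, Hsd17b7 and Tm7sf2, with differences from -1.18 to -0.48.

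The 2 Arid1a/b DKO libraries differed from each other. Replicate 1 was below replicate 2 for all 32 genes, with a median ratio of 0.494. Hmgcs1 stood at 36.2 CPM in replicate 1 and 239 CPM in replicate 2, against 426 and 162 CPM in WT. The number of genes that fell was 7 without replicate 1 and 23 without replicate 2 of Arid1a/b DKO, and 6 without replicate 1 of WT. It was 8 when the fit held these 4 libraries alone.

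Markers of cell types moved with these genes, in a comparison where 12.6% of all genes tested were called higher and 13.8% lower. The 7 hepatocyte markers summed to 19043 and 19574 CPM in Arid1a/b DKO and 46928 and 25563 CPM in WT, and 3 of the 7 fell. The 6 stellate cell markers summed to 1816 and 892 CPM against 248 and 317 CPM with 3 of 6 higher. The 7 macrophage markers summed to 2281 and 1366 CPM against 578 and 1120 CPM with 1 of 7 higher, near the share over all genes. The 5 cholangiocyte markers summed to 425 and 158 CPM against 58.2 and 39.8 CPM with 2 of 5 higher. Most of the cholangiocyte sum was Spp1, at 403 and 140 CPM against 45.2 and 30.4 CPM. Epcam stood at 6.31 and 4.49 CPM against 1.93 and 1.56 CPM, while Krt19, Krt7 and Sox9 were low and overlapped between the groups. In the macrophage, stellate and cholangiocyte sums replicate 1 of Arid1a/b DKO was the higher one, but Sox9 was higher in replicate 2. In whole tissue fewer cells of a type and less RNA per cell cannot be told apart, and the part of these markers in the lower levels was not tested. Of 8 feeding-related genes 2 rose and 3 fell in Arid1a/b DKO against WT. Igfbp1, an insulin-repressed gene, stood at 338 and 226 CPM against 7.24 and 57.1 CPM, and Pck1, encoding the gluconeogenic enzyme PEPCK, at 496 and 104 CPM against 2640 and 3488 CPM. Their part was not tested.

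Among related genes in Arid1a/b DKO against WT, the 8 carbon and NADPH supply genes split, with 2 higher and 5 lower, where 12.6% of all genes tested were called higher and 13.8% lower. G6pdx, encoding glucose-6-phosphate dehydrogenase, rose from 8.37 and 13.6 CPM in WT to 299.99 and 285 CPM (4.72 ± 0.34, adjusted p = 2.09e-05). Khk (-2.77) and Pklr (-3.13), enzymes of fructose and glucose breakdown, were among those that fell. Of the 13 upstream regulators Mlxipl, encoding ChREBP (-3.40), and Usf2 (-1.18) fell, and Irs2 rose (2.78). Those counts, 2 lower and 1 higher of 13, were near or below the shares over all genes.

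Of the 12 genes of fatty acid modification 1 rose, Scd2 (4.36), and 5 fell, among them Agpat2 (-3.32), Dgat2 (-3.60) and Elovl6 (-2.05). Of the 14 SREBP processing genes 5 fell and 1 rose, each by less than 1 on that scale, among them Rnf139 (-0.64), a ubiquitin ligase of the endoplasmic reticulum. Among 12 sterol transport genes Scarb1 (-1.60), Tmem97 (-1.55) and Abcg8 (-1.37) fell and Abcg1 rose (2.04), and of 8 isoprenoid branch genes Fntb rose (1.57). The lists around the pathway thus held genes called in both directions, where 12.6% of all genes tested were called higher and 13.8% lower. In lists of this size 1 called gene is no more than those shares, so single calls show nothing particular to a list.

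Against Arid1a KO of the same time point, Arid1a/b DKO livers had 10 of the 32 genes lower, where 12.1% of all genes tested were called lower, and 1 higher, where 9.92% were called higher. The 10 were Thrsp (-6.62 ± 1.02, adjusted p = 0.00147), Scap (-1.41 ± 0.25, adjusted p = 0.00351), Acss2 (-2.26 ± 0.43, adjusted p = 0.00504), Dhcr7 (-1.78 ± 0.36, adjusted p = 0.00645) and Fasn (-1.92 ± 0.45, adjusted p = 0.0134), with Sc5d, Acat2, Acly, Stard4 and Mvk. The Arid1a KO levels behind these were 1080.1 and 452 CPM for Thrsp, 205 and 186 CPM for Acss2, 170.2 and 147 CPM for Dhcr7 and 1315 and 1148 CPM for Fasn, all above the Arid1a/b DKO libraries. The gene that rose was Me1, at 198 and 206 CPM against 95.6 and 87.4 CPM in Arid1a KO (1.15 ± 0.25, adjusted p = 0.00973). Me1 was thus low in Arid1a KO and within the WT range in Arid1a/b DKO. This comparison shares its Arid1a/b DKO libraries with the one above, and its 11 calls became 5 without replicate 1 and 21 without replicate 2 of Arid1a/b DKO, 5 without replicate 1 and 6 without replicate 2 of Arid1a KO. Without either Arid1a KO library Me1 was not called (adjusted p up to 0.0800).

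**Figure D3:**
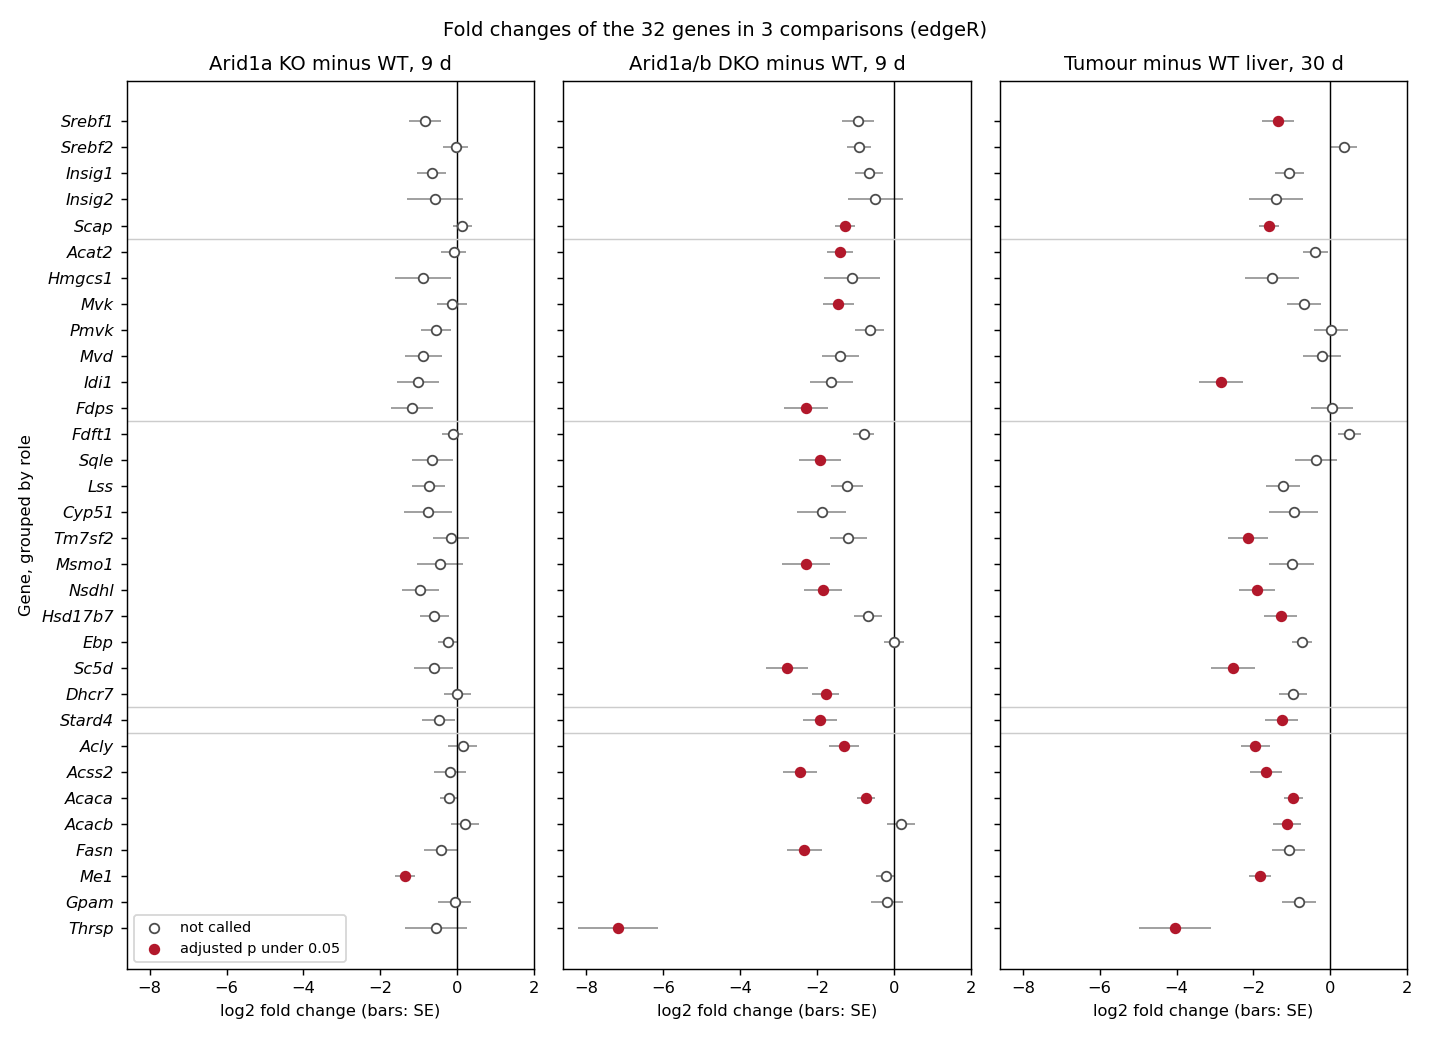
Log2 differences of the 32 genes, grouped by role, in 3 comparisons, with bars for 1 SE and filled points for genes with an edgeR adjusted p under 0.05. 1 gene is filled for Arid1a KO, 15 for Arid1a/b DKO and 14 for tumours, all to the left of 0, and Thrsp lies farthest left in the last 2 panels.

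The agonist was compared with vehicle at 30 days in each genotype. In WT none of the 32 genes was called by edgeR, where 0.0280% of all genes tested were called in either direction. DESeq2 and limma called 0. In edgeR 1 gene of the 32 had an unadjusted p under 0.05, against 3.66% of all genes. That gene was Srebf1, with 322 and 416 CPM under agonist and 437 and 1076 CPM under vehicle (-1.04 ± 0.42, adjusted p = 1). Me1 followed with 193 and 147 CPM against 192 and 275 CPM (-0.46 ± 0.25, adjusted p = 1). The median over the 32 genes was -0.31, with 29 negative differences, against 49.8% negative over all genes. It was 0.00 when the 9-day WT livers served as reference in view of the conflicting label of days.

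In Arid1a KO Me1 alone among the 32 genes rose under agonist, where 0.550% of all genes tested were called higher. Me1 stood at 234 and 315 CPM under agonist and at 105 and 83.6 CPM under vehicle. The groups were well apart, and the difference was 1.54 ± 0.25 (adjusted p = 0.0199). Under agonist Arid1a KO was thus the highest of the 8 groups for Me1, and under vehicle it was among the lowest. The call was lost when any 1 of the 4 libraries was left out and when only these libraries were fitted (adjusted p up to 0.176), with differences from 1.31 to 1.91.

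Other members had small p in this comparison without being called. Scap stood at 109 and 137 CPM under agonist against 264 and 208 CPM under vehicle (-0.93 ± 0.25, adjusted p = 0.134). Ebp stood at 89.4 and 136 CPM against 267 and 172 CPM (-0.96 ± 0.26, adjusted p = 0.143). All 11 genes from squalene to cholesterol and all 7 of the earlier steps had negative differences, and 5 of the 8 fatty acid genes had positive ones. Over all genes tested 51.8% had a negative difference. The members also moved together between libraries. Replicate 1 was higher than replicate 2 for 29 of the 32 genes in Arid1a KO with vehicle and lower for 29 of the 32 in Arid1a KO with agonist. Their signs are thus not separate observations. DESeq2 called 3 of the 32 genes.

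Between genotypes under agonist none of the 32 genes was called by edgeR, where 4.95% of all genes tested were called in either direction. 6 had an unadjusted p under 0.05 in edgeR, against 21.5% of all genes. DESeq2 called 3 and limma called 0. Ebp (-0.89 ± 0.26, adjusted p = 0.0797) and Scap (-0.75 ± 0.25, adjusted p = 0.109) had the smallest p. The late sterol genes all had negative differences (median -0.63, 11 genes) and the fatty acid genes mostly positive ones (median 0.50, 6 of 8 positive). Over all genes tested 50.4% had a negative difference, and signs of members that move together are not separate observations. Around the pathway Pgd (2.33) and G6pdx (1.85), 2 of 8 carbon and NADPH supply genes, rose in Arid1a KO under agonist. Scd2 (4.16), 1 of 12 genes of fatty acid modification, rose too. Of all 17831 genes tested 543 were called higher. None of the SREBP processing, upstream regulator, isoprenoid branch or sterol transport genes was called.

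The test of whether the agonist acted differently in the 2 genotypes called none of the 32 genes in edgeR, where 0.00561% of all genes tested were called. 2 had an unadjusted p under 0.05 in edgeR, against 5.58% of all genes. DESeq2 called 1 and limma 0. Me1 had the smallest p, with an interaction of 2.01 ± 0.36 (adjusted p = 0.159), and Acaca followed with 1.02 ± 0.33 (adjusted p = 0.672). Acaca stood at 163 and 166 CPM in Arid1a KO with agonist, 113 and 98.2 CPM in Arid1a KO with vehicle, 116 and 103 CPM in WT with agonist and 126 and 158 CPM in WT with vehicle. So the agonist libraries of Acaca lay above their vehicle controls in Arid1a KO and below them in WT, a difference that did not pass the test.

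**Figure D4:**
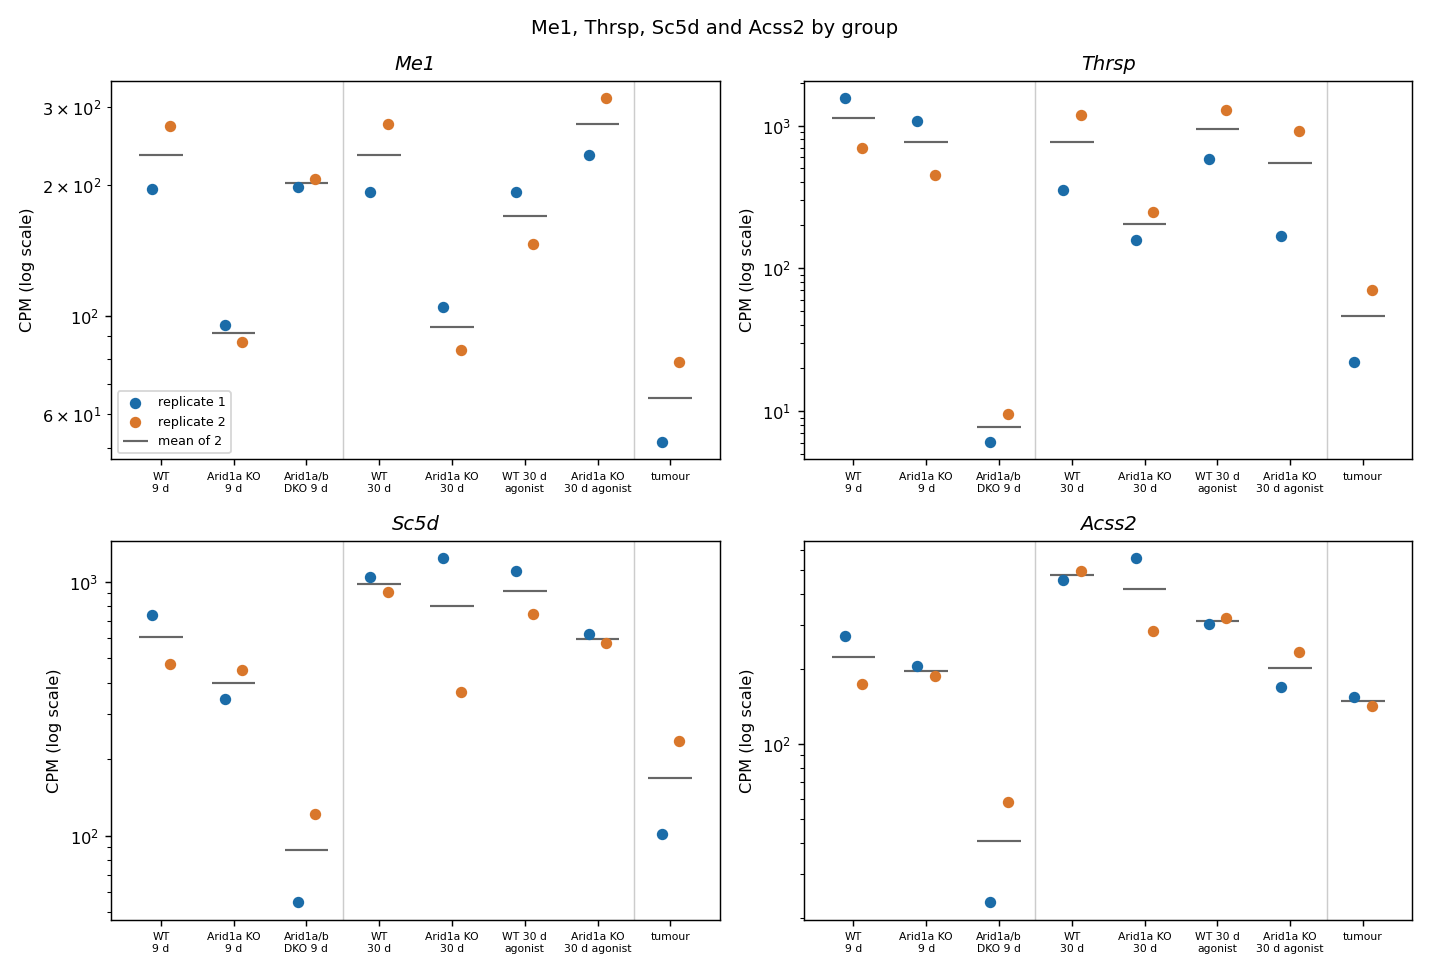
Levels of Me1, Thrsp, Sc5d and Acss2 in CPM (log axis) in the 8 groups, with points for replicates 1 and 2 and a line for their mean. Me1 lies at 83.6 to 105 CPM in Arid1a KO vehicle livers, 234 to 315 CPM in Arid1a KO with agonist and 51.6 to 78.8 CPM in tumours, and Thrsp is lowest in Arid1a/b DKO at 6.05 and 9.46 CPM.

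Times after tamoxifen were compared within each genotype. In WT none of the 32 genes was called between 30 and 9 days by edgeR, where 0.0224% of all genes tested were called, and in Arid1a KO none was called, where 0.0112% were. Unadjusted p in edgeR was under 0.05 for 3 and 7 of the 32 genes, against 9.09% and 6.9% of all genes. DESeq2 and limma called 0 in both. The medians were 0.23 and 0.54, with 24 and 28 positive differences. Over all genes tested 50.7% and 48.8% had negative differences. Acss2 was among the smallest p in both genotypes, with 455 and 496 CPM at 30 days against 271 and 173 CPM at 9 days in WT (1.10 ± 0.42, adjusted p = 0.446) and a difference of 1.10 ± 0.42 in Arid1a KO (adjusted p = 0.699). Gpam was too, with 0.96 ± 0.43 in WT and 1.10 ± 0.43 in Arid1a KO. Scap had the smallest p in WT (0.73 ± 0.25, adjusted p = 0.389), and Pmvk, encoding phosphomevalonate kinase, the second smallest in Arid1a KO (0.97 ± 0.38, adjusted p = 0.699).

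Within the 30-day livers some members differed more between replicates than between groups. Insig2 ran from 399 to 479 CPM in replicate 1 and from 101 to 208 CPM in replicate 2 of the 4 groups, with no overlap, and was the only member of the 32 to split so. Thrsp was higher in replicate 2 in 4 of 4 groups, and Sc5d was higher in replicate 1 in 4 of 4. Of 8 clock genes 6 also split by replicate number without overlap. The share of all genes that split so was not counted, so these counts are not set against it. Arntl, encoding the clock activator BMAL1, ran from 10.8 to 60.3 CPM in replicate 1 and from 0.840 to 2.55 CPM in replicate 2, and Dbp, its output gene, from 5.90 to 108 CPM and from 207 to 397 CPM.

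All 8 feeding-related genes overlapped between replicate numbers at 30 days, although Pck1 was higher in replicate 2 and Igfbp1 in replicate 1 in 4 of 4 groups. The labels give no time of collection or feeding state, and the part of either in these values was not tested. With only replicate 2 of the 30-day livers, a check chosen after the data were seen, 7 genes were called in the tumours against WT and 0 against Arid1a KO.

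**Figure D5:**
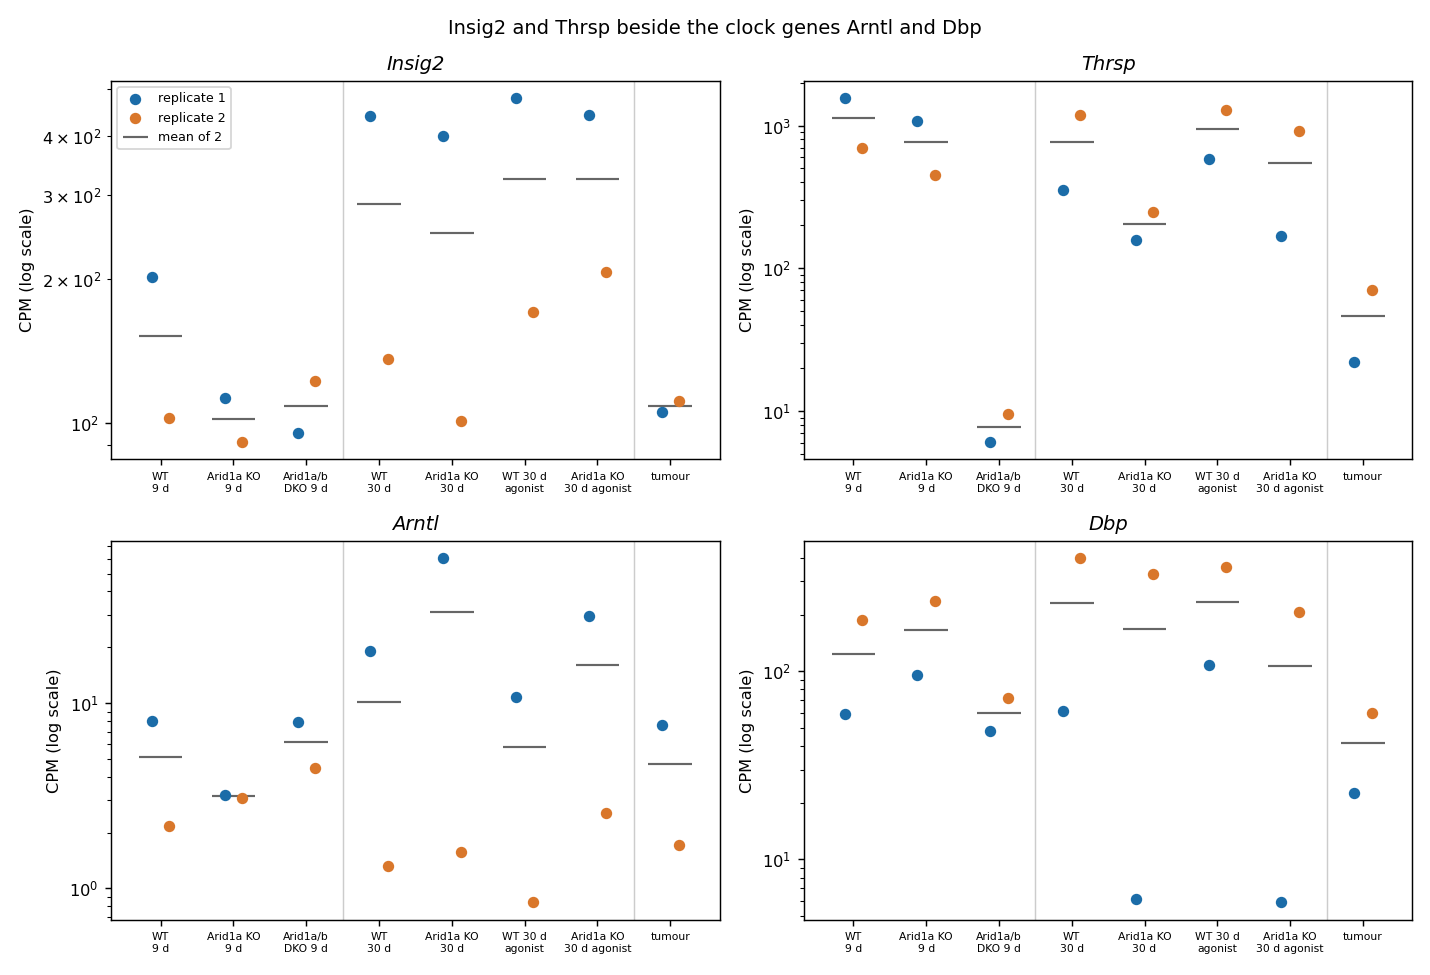
Levels of Insig2, Thrsp, Arntl and Dbp in CPM (log axes) in the 8 groups, with points for replicates 1 and 2 and a line for their mean. In the 4 groups of 30 days replicate 1 is above replicate 2 for Insig2 and Arntl and below it for Thrsp and Dbp.

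Tumours were compared with 30-day livers. Against WT liver 14 of the 32 genes fell and none rose, where 13.8% of all genes tested were called lower. The median difference was -1.11 over the 32 genes and 0.05 over all genes, with 28 of 32 negative against 48% of all genes. Of the fatty acid genes 6 of 8 fell, Acly, Acss2, Acaca, Acacb, Me1 and Thrsp, and 1 of 7 early sterol genes, 4 of 11 late sterol genes, 2 of 5 regulators and Stard4 fell. The tumours differ from WT liver in Arid1a, in the BcatEXON allele and in being tumours, and these cannot be told apart. Time after tamoxifen and vehicle may differ as well, since neither is given in the names of the tumour samples.

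Me1 stood at 51.6 and 78.8 CPM in tumours and 192 and 275 CPM in WT (-1.84 ± 0.28, adjusted p = 0.000818). Acly stood at 158 and 181 CPM against 666 and 643 CPM (-1.95 ± 0.38, adjusted p = 0.00299). Scap fell by 1.59 (SE 0.25, adjusted p = 0.00102). In these 3 genes the groups lay well apart, and with Sc5d they were called under all 12 alternatives tried for this comparison.

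Idi1, encoding isopentenyl diphosphate isomerase, stood at 7.26 and 7.68 CPM in tumours and 65.9 and 41.2 CPM in WT (-2.84 ± 0.57, adjusted p = 0.00351). Sc5d stood at 101 and 236 CPM against 1042 and 909 CPM (-2.53 ± 0.58, adjusted p = 0.00674), and Thrsp at 21.9 and 70.5 CPM against 351 and 1179 CPM (-4.04 ± 0.93, adjusted p = 0.00721). In these 3 genes both tumours were below both WT livers. The others that fell were Tm7sf2 (sterol reductase, -2.14), Nsdhl (-1.90), Acss2 (-1.68), Srebf1 (-1.36), Hsd17b7 (3-ketosteroid reductase, -1.29), Stard4 (-1.27), Acacb (-1.14) and Acaca (-0.96).

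Of the 18 genes not called in tumours against WT, 4 had positive differences. Fdft1, encoding squalene synthase, stood at 219 and 361.5 CPM against 197 and 215 CPM in WT (0.49 ± 0.30, adjusted p = 0.240), both tumours above both WT livers. Fdps stood at 73.6 and 118 CPM against 99.7 and 85.9 CPM (0.05 ± 0.54), Pmvk at 61.1 and 148 CPM against 104 and 103 CPM (0.01 ± 0.44), and Srebf2 had a difference of 0.34 ± 0.34. The groups overlapped for Fdps and Pmvk. Idi1, which lies between Pmvk and Fdps in the route, was the early enzyme that fell. Just outside the threshold were Insig1 (-1.06, adjusted p = 0.0504), Ebp (-0.73, adjusted p = 0.0521), Lss, encoding lanosterol synthase (-1.23, adjusted p = 0.0525), and Dhcr7 (-0.97, adjusted p = 0.0586). The other 10, Insig2, Acat2, Hmgcs1, Mvk, Mvd, Sqle, Cyp51, Msmo1, Fasn and Gpam, had differences from -1.51 to -0.22.

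Against Arid1a KO liver 7 of the 32 genes fell in tumours and none rose, where 12.2% of all genes tested were called lower. They were Scap (-1.49 ± 0.25, adjusted p = 0.00185), Acly (-2.13 ± 0.38, adjusted p = 0.00241), Acacb (-1.98 ± 0.37, adjusted p = 0.00309), Sc5d (-2.25 ± 0.57, adjusted p = 0.0144), Tm7sf2 (-2.06 ± 0.53, adjusted p = 0.0153), Idi1 (-2.17 ± 0.56, adjusted p = 0.0154) and Acss2 (-1.50 ± 0.41, adjusted p = 0.0204). Acacb stood at 58.5 and 68.2 CPM in tumours and 343 and 157 CPM in Arid1a KO liver. The Arid1a KO livers had 1013 and 475 CPM of Acly, 1236 and 369 CPM of Sc5d, 282 and 167 CPM of Tm7sf2 and 40.9 and 26.9 CPM of Idi1, in each case above both tumours, and Tm7sf2 in the tumours stood at 32.2 and 75.3 CPM. Me1 was not called here, at 51.6 and 78.8 CPM against 105 and 83.6 CPM (-0.53 ± 0.28, adjusted p = 0.182). The 2 tumour comparisons share the tumour libraries.

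Counts in the tumours depended on single libraries. Against WT they were 5 without replicate 2 of WT and 7 without replicate 1 of the tumours. Against Arid1a KO they were 3 without replicate 1 of Arid1a KO and 3 without replicate 1 of the tumours, and 4 when the fit held those 4 libraries alone. The 7 hepatocyte markers summed to 34036 and 28493 CPM in tumours and 30392 and 29551 CPM in WT at 30 days, and 0 of the 7 were called. The 5 endothelial markers summed to 84.3 and 56.6 CPM against 296 and 217 CPM with 3 of 5 lower, and the 7 macrophage markers to 292 and 218 CPM against 447 and 138 CPM with 2 of 7 lower and 1 higher. Of the 8 feeding-related genes 2 rose and 4 fell against WT. All 8 had an unadjusted p under 0.05 in edgeR, against 42.3% of all genes tested. Igfbp1 stood at 2541 and 818 CPM in tumours against 79.2 and 37.5 CPM, and Pck1 at 426 and 525 CPM against 2950.1 and 3213 CPM. The part of these genes and markers in the lower levels was not tested.

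Related genes in the tumours again moved both ways, and a single call in one of these lists is no more than the share over all genes. Against WT, where 16.3% of all genes tested were called higher and 13.8% lower, G6pdx rose by 2.29 and Pgd by 1.57 on the log2 scale, while Khk (-1.62) and Idh1 (-1.30) fell, among 8 carbon and NADPH supply genes. Of the 13 upstream regulators 6 fell, among them Mlxipl (-1.79), Rxra (-1.06) and Insr (-1.25), and Nr1h2 rose (0.69). Scd2 rose by 5.33 and Dgat1 by 0.80 while Elovl5, Elovl6 and Agpat2 fell among 12 genes of fatty acid modification. Tmem97 (1.47) and Npc2 (0.84) rose and Abca1 fell (-1.90) among 12 sterol transport genes, 4 of 14 SREBP processing genes fell and 1 rose, and none of 8 isoprenoid branch genes was called.

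Set side by side, Arid1a/b DKO and tumours had 8 lowered genes in common against their own WT controls, 53.3% of the 15 and 57.1% of the 14: Acaca, Acly, Acss2, Nsdhl, Sc5d, Scap, Stard4 and Thrsp. The controls are different libraries, the share of all genes lowered in both was not counted, and no test of the overlap was made. The overlap is thus not shown to be particular to these genes. Acat2, Dhcr7, Fasn, Fdps, Msmo1, Mvk and Sqle were called in Arid1a/b DKO alone, and Acacb, Hsd17b7, Idi1, Me1, Srebf1 and Tm7sf2 in tumours alone. The difference between the 2 changes was not tested. Fasn, for instance, had -2.33 ± 0.46 in Arid1a/b DKO and -1.09 ± 0.43 (adjusted p = 0.0758) in tumours, and Me1 had -0.21 ± 0.25 and -1.84 ± 0.28.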

How the data were processed

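Gene counts of the 16 libraries were taken as deposited. The submitters' processing notes name fastp, STAR 2.7.3, featureCounts and the GRCm38.p6 build for the authors' counts. Neither the annotation release nor the strand setting is given there, so overlapping and antisense genes cannot be separated. The deposited normalized values (a signal that is never negative) served only for limma. In R 4.3.3, edgeR 4.0.16 (filterByExpr, TMM, quasi-likelihood test, Benjamini-Hochberg adjustment) was fitted to the 14 livers (17831 genes) for liver comparisons and to all 16 libraries (18193 genes) for the tumours, without a replicate block. The script was tested on simulated data with known changes. SE is the log2 difference divided by the square root of F. Alternatives were DESeq2 1.42.0, limma 3.58.1, other scaling, filters and sample sets, and each library left out. The labels do not say that replicate numbers mark a batch. The biological coefficient of variation was 29.3% in the livers, and counting error is small beside it. The text names the 5 regulators and, per comparison, up to 6 called members with the smallest p (or, with none called, the 2 smallest) with library values; other members are given by difference or count. Per-kilobase levels use merged exon lengths. The members and lists were chosen with earlier results of these data known.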

Additional observations from a re-analysis of the deposited data

How the results depend on the processing

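No called gene reversed direction under the alternatives run. Differences of genes not called could change sign: that of Gpam in Arid1a/b DKO against WT (-0.18) was 0.02 without replicate 1 of Arid1a/b DKO and 0.33 without replicate 1 of WT. Of 554 values of called genes recomputed under an alternative, 444 stayed on the same side of the threshold and 110 did not. Without a filter on low counts the number of the 32 genes called was 7 for Arid1a KO against WT at 9 days, 3 at 30 days, 23 for Arid1a/b DKO against WT and 18 against Arid1a KO. It was 1 for the agonist in WT, 6 for the agonist in Arid1a KO, 8 between genotypes under agonist and 1 for their interaction. For time after tamoxifen it was 3 in WT, 8 in Arid1a KO and 1 for the interaction with genotype, and for tumours 23 against WT and 16 against Arid1a KO. The share of all genes called without the filter is not given here. These counts thus do not show whether the 32 genes gained more calls than the rest. The cause was not tested.

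With a replicate block 0 genes were called for Arid1a KO at 9 days and 16 for Arid1a/b DKO against WT, and every other count was as without it, those of the 30-day livers and tumours included. Replicate differences correlated between 0.217 and 0.476 among the 4 groups of 30 days, at 0.178 between WT and Arid1a KO and at -0.0383 between WT and Arid1a/b DKO at 9 days. The 30-day livers thus deviated together by number, a hint from the data. With 2 replicate numbers and no label that gives them a meaning, they were not taken to pair samples. With all 16 libraries in the fit 0 were called for Arid1a KO at 9 days. With only the libraries compared, 8 were called for Arid1a/b DKO against WT, 0 for the agonist in Arid1a KO and 4 for tumours against Arid1a KO.

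DESeq2 called 1 gene for Arid1a KO at 30 days, 3 for the agonist in Arid1a KO, 3 between genotypes under agonist, 1 for the interaction and 11 for tumours against Arid1a KO, and limma called 1 for Arid1a KO at 30 days. Shares of all genes called by DESeq2, by limma and under the other alternatives are not given here either. With only replicate 2 of the 30-day livers, chosen after seeing the data, 0 were called for the agonist in Arid1a KO, 7 for tumours against WT and 0 against Arid1a KO. Leaving out 1 library gave 0 for Arid1a KO at 9 days and 0 for the agonist in Arid1a KO in each case, 6 to 23 for Arid1a/b DKO against WT, 5 to 21 against Arid1a KO, 5 to 16 for tumours against WT and 3 to 10 against Arid1a KO. These fits give the single library left in a group the spread of the rest. Every one of the 32 genes had at least 64 counts in each library, so spread between libraries, not depth, limits these values.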
